A study of Mus musculus with 82 samples.

Results

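The 9 genes described here encode ion channels and adenosine signalling proteins that ethanol is known to act on directly or indirectly. They are Kcnma1, Kcnmb4, Kcnj3, Kcnj6, Kcnj9, Hcn2, Glra2, Adora1 and Slc29a1. They were chosen by name, and every array probe that carries one of these symbols was used: 23 of the 45281 probes of the array. Of these, 16 probes covering all 9 genes passed the authors' detection filter in all 3 normalized tables. The tissue was the extended amygdala, taken from C57BL/6J females whose age the labels give as 2 months. In the alcohol group, mice had 24 h access each day to a bottle of 20% ethanol and a bottle of water for 30 days. In the control group, mice had water in both bottles for the same 30 days. Synaptoneurosomes (SN), a preparation enriched for pinched-off synaptic endings, were made by passing tissue homogenate through filters of 100 µm and 5 µm and collecting the pellet of a 20 min spin at 14000 g. Total homogenate (TH) was 10% of the same homogenate, so each mouse supplied a pair. The mRNA arrays were 8 SN of alcohol mice, 13 SN of control mice, 8 TH of alcohol mice and 11 TH of control mice, all on the Mouse WG-6 v2.0 BeadChip of Illumina. SN and TH were available together for 8 alcohol mice and 11 control mice.

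BK channels are potassium channels opened by calcium and depolarization. Kcnma1 encodes the pore subunit and Kcnmb4 the beta subunit typical of brain, and ethanol alters the gating of these channels. GIRK channels, built from the products of Kcnj3, Kcnj6 and Kcnj9, are potassium channels opened by G protein beta-gamma subunits and, directly, by ethanol. Hcn2 encodes a pacemaker channel opened by hyperpolarization and cyclic nucleotides, and Glra2 a glycine receptor alpha subunit. Adora1 encodes the A1 adenosine receptor, which couples to inhibitory G proteins and lowers transmitter release. Slc29a1 encodes the equilibrative nucleoside transporter ENT1, which moves adenosine across the membrane and is inhibited by ethanol.

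In control mice Adora1, Kcnma1 and Hcn2 were higher in SN than in TH, and Glra2 was lower. The upstream sequences of these 4 genes are shown because the genes moved between the fractions, 3 in one direction and 1 in the other. Each is the 250 bases before a start given in RefSeq's annotation of GRCm38.p6, on the coding strand. GC boxes (GGGCGG on either strand, overlaps allowed) are in capitals.
Kcnma1: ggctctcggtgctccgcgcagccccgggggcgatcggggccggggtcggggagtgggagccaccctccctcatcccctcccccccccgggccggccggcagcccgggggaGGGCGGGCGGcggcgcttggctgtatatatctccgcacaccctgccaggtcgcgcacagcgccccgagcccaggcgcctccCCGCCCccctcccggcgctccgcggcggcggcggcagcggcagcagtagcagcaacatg
Hcn2: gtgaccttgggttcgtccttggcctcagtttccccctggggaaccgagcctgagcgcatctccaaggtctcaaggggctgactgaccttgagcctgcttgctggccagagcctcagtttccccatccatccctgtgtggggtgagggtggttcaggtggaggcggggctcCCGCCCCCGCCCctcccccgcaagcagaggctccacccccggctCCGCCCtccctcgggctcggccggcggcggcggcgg
Adora1: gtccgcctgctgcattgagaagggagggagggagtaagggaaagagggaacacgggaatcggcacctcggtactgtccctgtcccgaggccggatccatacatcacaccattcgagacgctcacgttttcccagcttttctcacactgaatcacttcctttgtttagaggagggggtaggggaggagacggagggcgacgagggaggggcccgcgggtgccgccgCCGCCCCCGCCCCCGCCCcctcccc
Glra2: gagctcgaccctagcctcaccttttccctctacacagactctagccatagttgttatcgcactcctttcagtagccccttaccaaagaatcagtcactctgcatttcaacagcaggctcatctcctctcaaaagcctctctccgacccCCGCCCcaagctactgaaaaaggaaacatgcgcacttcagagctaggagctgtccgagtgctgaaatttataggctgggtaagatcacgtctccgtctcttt
The Kcnma1 window lies at chr14:24004206-24004455 on the minus strand, the Hcn2 window at chr10:79716384-79716633 on the plus strand, the Adora1 window at chr1:134235458-134235707 on the minus strand and the Glra2 window at chrX:165327394-165327643 on the minus strand. Kcnma1, Hcn2 and Adora1 have 3 GC boxes each, and Glra2 has 1. At least 1 GC box occurs in 32.7% of the 32851 windows of this length, a share that does not gauge 3 boxes against 1. Among the genes not called in control mice, the Kcnmb4 window has 4 GC boxes and a GC content of 83.6%. The Kcnj3 and Kcnj9 windows have 0 GC boxes, the Kcnj6 windows 0 or 1 and the Slc29a1 windows 0 to 5. The number of boxes thus did not follow the calls. The GC content was 79.2% for Kcnma1, 70.4% for Hcn2, 64.4% for Adora1 and 50.4% for Glra2, where the median of all windows was 52.4%. A TATA box (TATAAA on either strand) is present in the Glra2 window and not in the other 3, and in 12.4% of all windows. The window of Kcnj9, a gene not called, also has 1. The cAMP response element TGACGTCA is in none of the 4 windows and in 1.55% of all. RefSeq gives Adora1 a second start, whose window at chr1:134234857-134235106 holds 0 GC boxes. RefSeq's span of Kcnma1 reaches base 24005110 and that of Glra2 base 165327867. The printed Kcnma1 and Glra2 windows therefore lie within the annotated genes, whereas the printed Hcn2 and Adora1 windows border theirs. These letters are a description of the windows, and no measurement of binding was made in this study.

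Levels are on the authors' normalized log2-like scale unless stated otherwise, where a difference of 1 stands for a doubling of signal or more. That scale is compressed at low signal: over the 22 arrays of the control pairs, the SD of Hcn2 was 0.909 of its SD on the log2 of the signals, whereas that of Kcnj9 was 0.433. Differences of the Kcnj genes are therefore understated. Median signals per array ran from 106 to 119 in SN of alcohol mice, from 107 to 122 in SN of control mice, from 116 to 128 in TH of alcohol mice and from 114 to 123 in TH of control mice, with 18839 to 21134 probes detected on an array. The SN arrays of controls 12 and 13 stood apart from the other 11 SN controls, and control 13 is among the pairs. The labels number the mice without giving litter or cage, so p-values measure the spread between these numbered samples.

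The BK pore gene Kcnma1 was higher in SN. In control mice its brightest probe (ILMN_1256814) had a lowest, median and highest value of 9.20, 9.64 and 10.06 in SN, against 9.02, 9.27 and 9.63 in TH. The groups overlapped, but SN was the higher member in 10 of 11 pairs. The difference was 0.29 (SE 0.061, limma adjusted p = 0.00236). The other Kcnma1 probes rose by 0.33 (ILMN_1244166, adjusted p = 0.0200) and by 0.20 (ILMN_2723799, adjusted p = 0.00267).

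Probe ILMN_1244166 of Kcnma1 is where the SN arrays that stood apart differ most from the rest. On the scale of the SN table, controls 12 and 13 had values of 9.16 and 9.41, whereas the other 11 controls lay between 8.10 and 8.61. Without control 13 the SN to TH difference of this probe was 0.23 (adjusted p = 0.00421), so the call did not rest on that mouse. The remaining probes of Kcnma1 gave 0.28 and 0.21 without it.

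The beta subunit gene Kcnmb4 did not pass the test in control mice. Its brightest probe had values of 9.28, 9.72 and 10.01 (lowest, median, highest) in SN, against 9.37, 9.47 and 9.78 in TH. The SN values were more spread out, extending both above and below the TH values, and SN was higher in 8 of 11 pairs. The difference was 0.20 (SE 0.076, adjusted p = 0.0518), and the other probes gave 0.14 and 0.037. The log2 signals, quantile-normalized over the same arrays, gave 0.24 (adjusted p = 0.0404), so this gene sits at the threshold.

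The GIRK subunit genes had low signal and near-zero differences. Kcnj3 had SN values of 7.96, 8.01 and 8.08 (lowest, median, highest), against TH values of 7.96, 8.02 and 8.07. Kcnj6 ran from 7.95 to 8.02 in SN, against 7.94 to 8.06 in TH, and Kcnj9 from 7.89 to 8.01 in SN, against 7.91 to 8.02 in TH. The groups of all 3 genes overlapped almost fully. The differences were -0.0086 for Kcnj3 (95% interval -0.050 to 0.033), -0.011 for Kcnj6 (-0.046 to 0.023) and -0.016 for Kcnj9 (-0.050 to 0.017). Their average signals of 123 to 162 per group lie close to the array medians. At that signal, smaller or scale-compressed differences were not detectable. Several Kcnj6 probes were barely detected: ILMN_1256457 on 0 of 40 arrays, and ILMN_2720186 on 1 of 21 SN and 2 of 19 TH arrays.

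The pacemaker channel gene Hcn2, whose single probe was detected on all 40 arrays, was higher in SN. It had SN values of 9.74, 10.37 and 10.62 (lowest, median, highest), against TH values of 9.70, 9.96 and 10.48. SN was higher in 9 of 11 pairs, and the ranges overlapped. The difference was 0.28 (SE 0.074, adjusted p = 0.00990).

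The glycine receptor gene Glra2 was the only one of the 9 genes that was called lower in SN of control mice. It had SN values of 9.10, 9.44 and 10.05 (lowest, median, highest), against TH values of 9.51, 9.86 and 10.16. Every one of the 11 pairs was lower in SN, although the ranges overlapped across mice. The difference was -0.29 (SE 0.053, adjusted p = 0.000846), and the pairs ran from -0.62 to -0.031.

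The A1 receptor gene Adora1 was higher in SN by both of its kept probes. Its brightest probe (ILMN_1254016) had SN values of 9.32, 9.85 and 10.37 (lowest, median, highest), against TH values of 9.27, 9.37 and 9.91. SN was higher in 10 of 11 pairs, by 0.41 (SE 0.077, adjusted p = 0.00107). Its other kept probe (ILMN_3143358) was higher in SN in all 11 pairs, by 0.34 (adjusted p = 0.00332). A further Adora1 probe was detected on 6 of 21 SN and 2 of 19 TH arrays and was not kept.

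The adenosine transporter gene Slc29a1 did not pass in control mice by its kept probe. It had SN values of 8.34, 8.54 and 8.87 (lowest, median, highest), against TH values of 8.43, 8.58 and 8.72. The groups overlapped, and SN was lower in 7 of 11 pairs. The difference was -0.012 (SE 0.041, 95% interval -0.10 to 0.077). A second Slc29a1 probe (ILMN_2638299) was detected on 0 of 21 SN and 6 of 19 TH arrays and was not kept. When limma was fitted to all probes of the array, that probe was at -0.081 (adjusted p = 0.0465) in control mice.

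**Figure D1:**
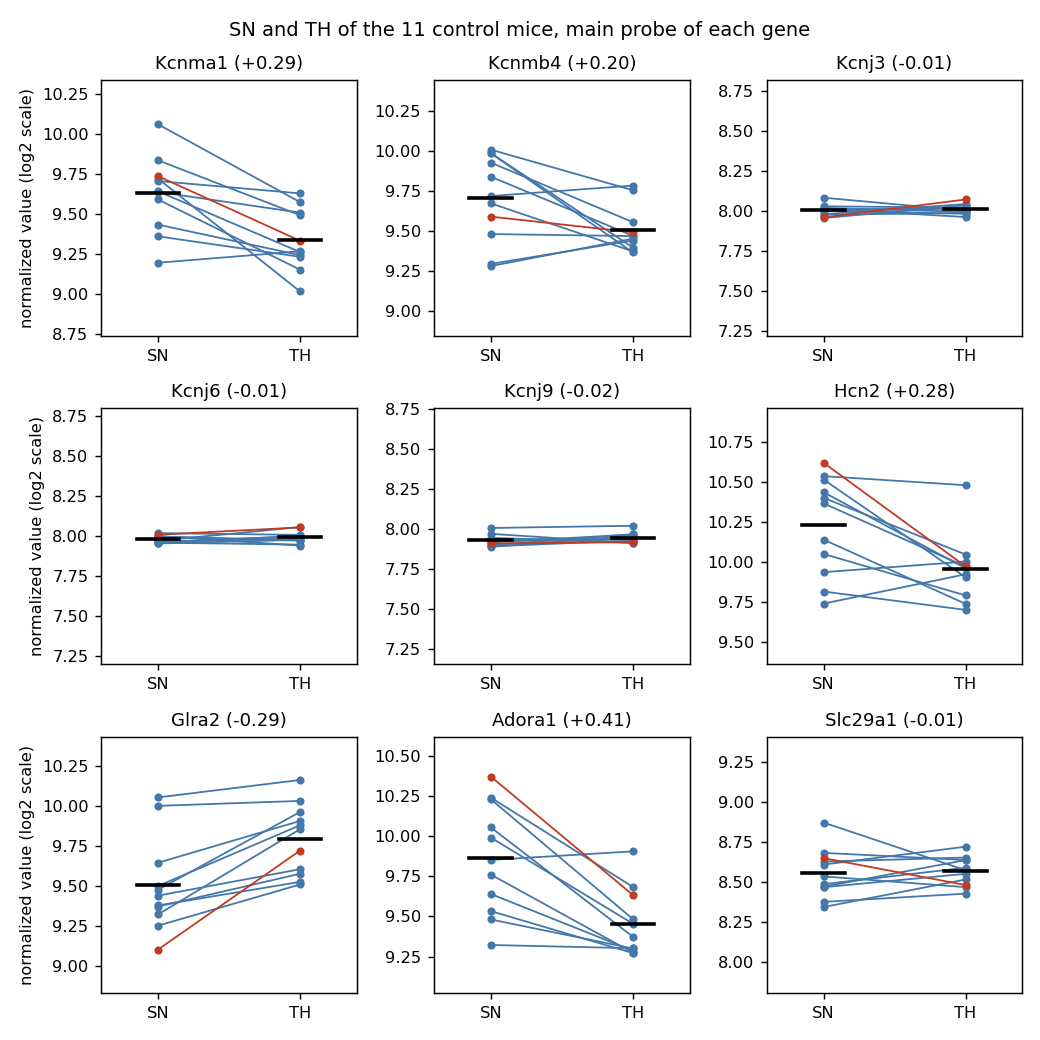
Normalized value (log2 scale, vertical axis) of the brightest probe of each gene in SN and TH of the 11 control mice; lines join the fractions of a mouse, red is control 13, black bars are means and titles give SN minus TH. All panels span the same height: Adora1, Kcnma1 and Hcn2 fall from left to right in most pairs, Glra2 climbs in all 11, and the Kcnj panels are flat.

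Counted by gene, 3 of the 9 rose in SN, 1 fell and 5 did not pass for SN against TH in control mice. Among all 12623 genes tested, 41.3% were called, 20% higher and 21.3% lower, so the share called among the 9 was near the background. By probe, 6 of the 16 rose and 1 fell, beside 39.5% of 17820 probes called (18.9% higher, 20.6% lower). The median difference was -0.0086 over the 9 genes and 0.0020 over all genes. Centring each array on its median in place of quantile normalization was a scaling added after the data were seen. That median was taken over all 45281 probes of the array, of which 18839 to 21134 were detected, so it lay among undetected probes. This scaling shifted the median of the probes tested to -0.11 in control mice. Under it the brightest probes of Adora1 (0.28, adjusted p = 0.0139) and Glra2 (-0.55, adjusted p = 1.43e-05) were still called in the same directions. Those of Kcnma1 (0.16, adjusted p = 0.153) and Hcn2 (0.12, adjusted p = 0.262) were not called. Of the other Kcnma1 probes, ILMN_1244166 was still called (0.38, adjusted p = 0.0357) and ILMN_2723799 was not (0.12, adjusted p = 0.2). Relative to the shift, Adora1 was at 0.39, Kcnma1 at 0.27, Hcn2 at 0.23 and Glra2 at -0.43. The split of calls over all probes was 1274 higher and 8039 lower under that scaling, against 3368 higher and 3677 lower in the authors' values.

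The alcohol mice gave a second set of SN and TH pairs. These were compared on log2 signals quantile-normalized over all 40 arrays, since no single table of the authors' normalized values holds both fractions of these mice. Adora1 had SN values of 9.69, 9.80 and 10.09 (lowest, median, highest), against TH values of 9.21, 9.42 and 9.63, with no overlap. It was higher in 8 of 8 pairs, by 0.41 (SE 0.040, adjusted p = 1.43e-06). Glra2 had SN values of 9.23, 9.40 and 9.68, against TH values of 9.49, 9.70 and 9.95. It was lower in SN in 8 of 8 pairs (difference -0.27, SE 0.040, adjusted p = 8.22e-05).

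Both BK genes were called by their brightest probes in the alcohol mice. Kcnma1 had SN values of 9.07, 9.60 and 9.81, against TH values of 9.01, 9.32 and 9.47, a difference of 0.22 (SE 0.053, adjusted p = 0.00288). Of its other probes, ILMN_2723799 rose by 0.26 (adjusted p = 0.00225), and ILMN_1244166 did not pass (0.13, adjusted p = 0.293). Kcnmb4 had SN values of 9.52, 9.82 and 10.05, against TH values of 9.35, 9.52 and 9.73. It was higher in SN in 8 of 8 pairs, by 0.27 (SE 0.046, adjusted p = 0.000260), and its other probes rose by 0.25 and 0.16. Hcn2 had SN values of 10.19, 10.36 and 10.65, against TH values of 9.74, 10.17 and 10.64. It was higher in 6 of 8 pairs, by 0.25 (SE 0.079, adjusted p = 0.0167), a call lost without alcohol replicate 7 (0.20, adjusted p = 0.0516).

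Slc29a1 was lower in SN of alcohol mice. It had SN values of 7.90, 8.05 and 8.33, against TH values of 8.07, 8.26 and 8.72. SN was the lower fraction in 7 of 8 pairs, and the difference was -0.23 (SE 0.054, adjusted p = 0.00304). On the same scale the control mice gave -0.024 (SE 0.062, adjusted p = 0.791). Whether the groups of mice differ was tested on the SN minus TH values of each mouse, given with the alcohol results.

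The GIRK genes again lay near 0 in their brightest probes, with differences of -0.033 for Kcnj3, 0.019 for Kcnj6 and -0.010 for Kcnj9, none of which passed. A dimmer Kcnj6 probe, ILMN_1257700, was lower in SN in 8 of 8 pairs (-0.14, adjusted p = 0.0108), so the Kcnj6 probes disagree. Its average signal, not normalized between arrays, was 121 in SN of alcohol mice, against 149 in TH of the same mice. On that measure the brightest Kcnj6 probe, which was not called, was also lower in SN, at 133 against 150.

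Over the 9 genes, 4 rose, 2 fell and 3 did not pass for SN against TH in alcohol mice, where 47.5% of 12274 genes were called (21.8% higher, 25.7% lower). By probe, 8 of the 16 rose and 3 fell, beside 45.7% of 17265 probes (21.4% higher, 24.3% lower). The median over the 9 genes was 0.019 and over all genes -0.014. Median centring moved the median of the probes tested to -0.18 here. Under it Kcnma1 stood at -0.043, Kcnmb4 at -0.0028 and Hcn2 at -0.011, none of them called, while Adora1 (0.14), Slc29a1 (-0.45) and Glra2 (-0.53) kept their directions in their brightest probes. The second Adora1 probe was at -0.021 (adjusted p = 0.832) under that scaling, and Kcnj3 was called lower (-0.13, adjusted p = 0.0255). Relative to that shift Kcnma1 was at 0.13, Kcnmb4 at 0.17 and Hcn2 at 0.17. Calls over all probes were 1286 higher and 10418 lower under median centring, against 3688 higher and 4202 lower.

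**Figure D2:**
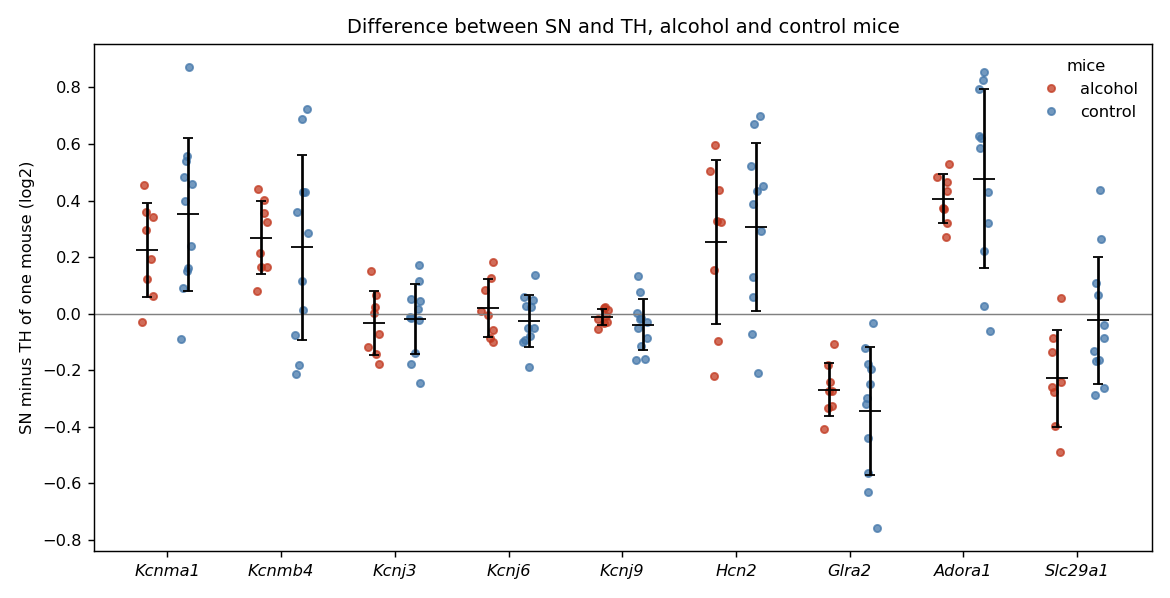
SN minus TH (log2 signals, quantile-normalized over all 40 arrays; vertical axis) of the 8 alcohol mice and the 11 control mice for each gene; black bars are means with SD. Adora1 is above 0 in all 8 alcohol mice, and Glra2 is below 0 in every mouse of both groups.

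RNA of other cell types also differed between SN and TH, and its part in the values above was not tested. Both fractions are parts of the same homogenate, so a marker difference concerns the RNA recovered in a fraction. In these bulk samples, less material of a cell type and less RNA in that material cannot be told apart. In control mice all 8 astrocyte markers rose in SN, with a median difference of 0.79, and all 7 measured endothelial and mural markers fell, with a median of -1.41. The summed endothelial and mural signal was 1387 to 2787 in SN of alcohol mice and 1575 to 2664 in SN of control mice, against 7630 to 12029 in TH of alcohol mice and 7605 to 10664 in TH of control mice. The summed astrocyte signal was 45748 to 76917 in SN of control mice, against 33667 to 48715 in TH of control mice. Of 6 oligodendrocyte markers, 3 rose and 3 fell, and of 7 microglial markers 3 rose and 0 fell. Of 10 markers of GABA neurons 6 fell and 1 rose, with a median of -0.19. Their summed signal was 13840 to 26363 in SN of control mice, against 21956 to 35023 in TH of control mice. Of the 2 general neuronal markers tested in control mice, Stmn2 fell by 0.35, whereas Syt1, at -0.14, was not called. The probes for Snap25, Nefl and Crh were detected on 0 arrays. Among 4 glutamate neuron markers, 1 fell in control mice and 3 were not called (median difference -0.027).

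Genes that work with these 9 were listed by pathway and not by how they moved. Of 23 genes of GIRK channels and their G protein control, 20 were tested in control mice. Of these, 6 rose in SN, 4 fell and 10 did not pass, beside 41.3% of all genes called, and the median was 0.020. Gng7, a G protein gamma subunit, rose by 0.57 (adjusted p = 1.32e-05) and Gnai2, an inhibitory alpha subunit, by 0.46 (adjusted p = 0.000233). Snx27, a sorting protein that binds GIRK channels, rose by 0.32 (adjusted p = 5.39e-05) and the beta subunit gene Gnb1 by 0.23 (adjusted p = 0.00280). Another inhibitory alpha subunit gene, Gnai1, fell by 0.23 (adjusted p = 0.0176), as did the beta subunit gene Gnb5 by 0.22 (adjusted p = 0.00213) and its partner Rgs7 by 0.19 (adjusted p = 0.00334). Rgs8, a regulator of G protein signalling, rose by 0.23 (adjusted p = 0.00112). The list thus moved in both directions in SN.

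For adenosine, 10 of 18 genes of transport and turnover were tested in control mice: 3 rose, 2 fell and 5 were not called, beside 41.3% of all genes called. Their median was 0.047. Adk, the kinase that clears adenosine by phosphorylation, rose by 0.44 (adjusted p = 3.15e-06), and its level in alcohol mice was also higher in SN (0.58, adjusted p = 1.85e-06). Pnp, a purine nucleoside phosphorylase, rose by 0.19 (adjusted p = 0.00688) and the ectonucleotidase Entpd2 by 0.18 (adjusted p = 0.00739). The nucleotidase genes Nt5c and Nt5e fell by 0.26 (adjusted p = 0.00912) and 0.056 (adjusted p = 0.0289). Among the other adenosine receptors, Adora2b was at -0.054 (adjusted p = 0.0613), and Adora2a, which encodes a receptor coupled to stimulatory G proteins, was detected on 4 of 40 arrays and not tested.

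Several relatives of the channel genes did not pass in control mice. Hcn3, another pacemaker channel gene, was at 0.0053 (adjusted p = 0.912). For the glycine receptor, Glrb, which encodes the beta subunit, was at -0.060 (adjusted p = 0.137) and the scaffold gene Gphn at -0.041 (adjusted p = 0.457). Slc32a1, the vesicular transporter of GABA and glycine, fell by 0.19 (adjusted p = 0.0235). Glra1 was detected on 0 arrays. Of the listed BK partners only Lingo1 was kept, at -0.054 (adjusted p = 0.203), and Kcnmb1 and Kcnmb2 were detected on 0 arrays. Among 11 other channel genes tested, 5 rose and 0 fell, beside 20% of all genes higher and 21.3% lower. Among them Kcnc1, a fast delayed rectifier, rose by 0.20 (adjusted p = 0.00813).

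**Figure D3:**
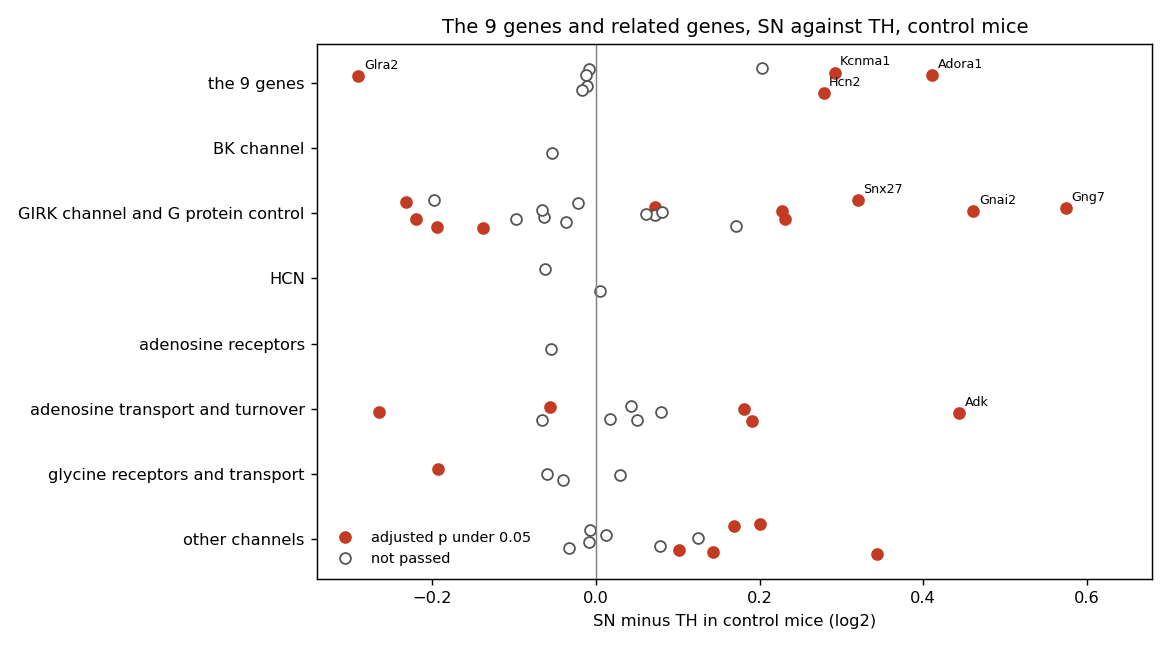
SN minus TH in control mice (log2 scale, horizontal axis) for the 9 genes and the related lists, 1 point per gene; filled points have an adjusted p under 0.05 and vertical scatter is for display. The GIRK and adenosine lists hold genes on both sides of 0, from Gnai1 at -0.23 to Gng7 at 0.57 and from Nt5c at -0.26 to Adk at 0.44.

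Alcohol drinking gave no call for any of the 9 genes in either fraction. Across all genes limma called 0 of 17514 probes in SN (10.7% at an unadjusted p under 0.05) and 0 of 18318 in TH (3.12%). Among the 16 probes of the 9 genes, 1 had an unadjusted p under 0.05 in SN and 0 in TH. That probe was ILMN_3143358 of Adora1, with SN values of 8.69, 8.81 and 8.94 (lowest, median, highest) in alcohol mice, against 8.70, 8.90 and 9.31 in control mice. The alcohol values overlapped the lower part of the control range, and the difference was -0.16 (95% interval -0.31 to -0.0081, p = 0.0398, adjusted p = 0.458). The brighter Adora1 probe was at -0.071 (-0.31 to 0.17), with values of 9.54, 9.64 and 9.89 in SN of alcohol mice, against 9.19, 9.72 and 10.25 in SN of control mice, and it was at -0.010 without controls 12 and 13.

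For the BK channel in SN, Kcnma1 had values of 9.03, 9.46 and 9.65 in alcohol mice, against 9.06, 9.51 and 10.08 in control mice (difference -0.11, 95% interval -0.34 to 0.12; -0.051 without controls 12 and 13). Its probe ILMN_1244166 gave -0.25 (-0.53 to 0.043, p = 0.0914), and -0.10 without controls 12 and 13. Kcnmb4 was at 0.067 (-0.15 to 0.28; 0.023 without those arrays). For the pacemaker and glycine channels in SN, Hcn2 was at 0.037 (-0.20 to 0.27; 0.091 without those arrays) and Glra2 at -0.053 (-0.26 to 0.15; -0.096 without them). The GIRK genes in SN were at 0.018 for Kcnj3, 0.015 for Kcnj6 and 0.0058 for Kcnj9. Slc29a1 had SN values of 8.24, 8.32 and 8.50 in alcohol mice, against 8.22, 8.44 and 8.74 in control mice, a difference of -0.075 (-0.19 to 0.040).

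In TH the largest differences of the 9 genes were 0.14 for Hcn2 (95% interval -0.073 to 0.35) and -0.12 for Glra2 (-0.29 to 0.061). Hcn2 had TH values of 9.84, 10.22 and 10.65 in alcohol mice, against 9.82, 10.09 and 10.60 in control mice, nearly the same range. Glra2 had TH values of 9.62, 9.81 and 10.03 in alcohol mice, against 9.63, 9.98 and 10.29 in control mice. The remaining genes lay between -0.011 for Kcnj6 and 0.066 for Slc29a1, and every adjusted p was 0.999. Effects within these intervals were not detectable at the spread between these mice.

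**Figure D4:**
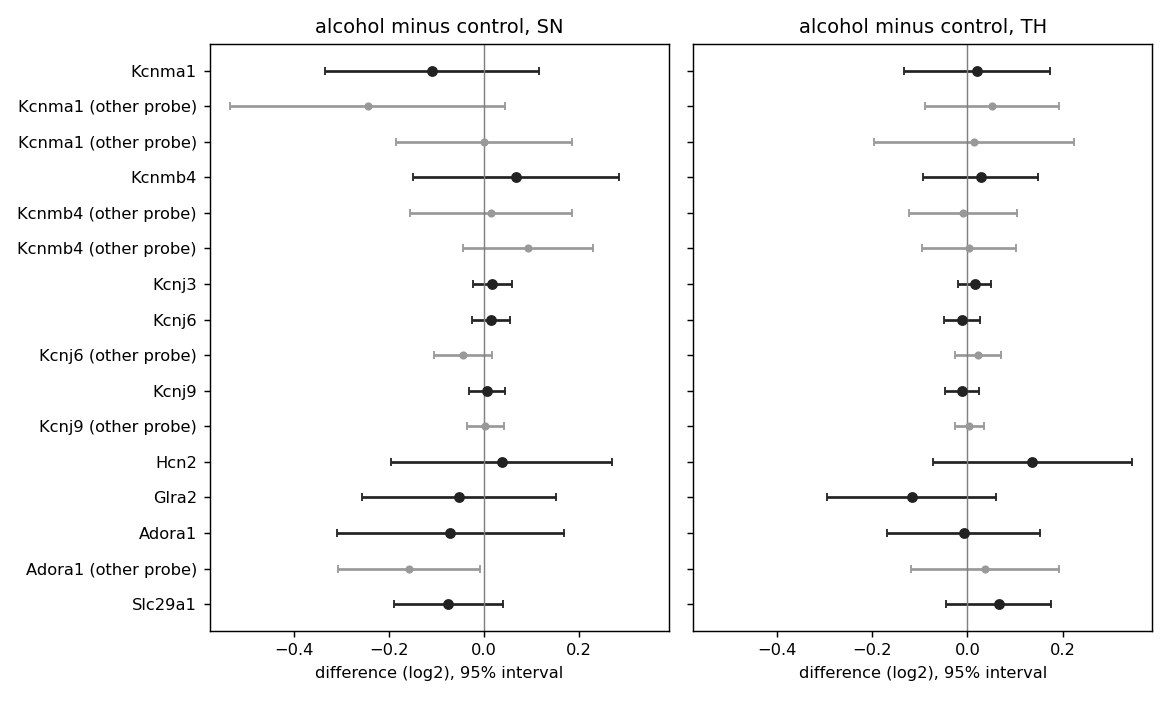
Alcohol minus control (log2 scale, horizontal axis) for the 16 kept probes in SN (left) and TH (right), with 95% intervals; black points are the brightest probe of each gene and grey points are other probes. Among the intervals of both panels, only that of the second Adora1 probe in SN leaves out 0 (-0.31 to -0.0081).

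The alcohol effect was also compared between SN and TH through the SN minus TH difference of each mouse, where 0 of 17265 probes were called (12.3% at an unadjusted p under 0.05). Slc29a1 had SN minus TH values of -0.49, -0.25 and 0.054 (lowest, median, highest) in alcohol mice, against -0.29, -0.087 and 0.44 in control mice. The groups overlapped, and 6 of the 8 alcohol mice lay below the control median. The difference of -0.21 (95% interval -0.39 to -0.020) had p = 0.0314 and an adjusted p of 0.377, and was -0.18 without control 13 (p = 0.0538). So the kept Slc29a1 probe passed the SN to TH test in alcohol mice and not in control mice, and the test of that difference did not pass. Kcnmb4 was called in alcohol mice and, on the authors' scale, not in control mice, but on the common scale it was called in control mice too (0.23, adjusted p = 0.0410). Its difference between the groups of mice was 0.034 (-0.20 to 0.27, adjusted p = 0.921). Kcnj6 probe ILMN_1257700 was at -0.14 (p = 0.0349, adjusted p = 0.381), and -0.10 without control 13 (p = 0.0599). Kcnma1 probe ILMN_1244166 was at -0.39 (p = 0.0501), and -0.26 without control 13. The SD of SN minus TH was smaller in alcohol mice than in control mice for 8 of the 9 genes, for example 0.087 against 0.32 for Adora1. This difference in spread was not tested, nor counted over all genes. The control pairs include control 13, whose SN array stood apart.

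By group on the common scale, Adora1 averaged 9.82 ± 0.13 in SN of alcohol mice (SD, n = 8), 9.89 ± 0.37 in SN of control mice (n = 13), 9.42 ± 0.13 in TH of alcohol mice (n = 8) and 9.42 ± 0.25 in TH of control mice (n = 11). The highest level was that of SN of control mice, and neither pair of groups within a fraction passed the test of alcohol against control. Hcn2 was likewise higher in SN than in TH, at 10.41 ± 0.15 in SN of alcohol mice, 10.37 ± 0.34 in SN of control mice, 10.16 ± 0.28 in TH of alcohol mice and 10.01 ± 0.23 in TH of control mice. Kcnma1 stood at 9.53 ± 0.23 in SN of alcohol mice, 9.66 ± 0.33 in SN of control mice, 9.31 ± 0.15 in TH of alcohol mice and 9.28 ± 0.24 in TH of control mice. Glra2 ran the other way, with 9.42 ± 0.15 in SN of alcohol mice, 9.48 ± 0.32 in SN of control mice, 9.69 ± 0.17 in TH of alcohol mice and 9.82 ± 0.25 in TH of control mice. For Slc29a1 the levels were 8.09 ± 0.17 in SN of alcohol mice, 8.21 ± 0.22 in SN of control mice, 8.32 ± 0.22 in TH of alcohol mice and 8.23 ± 0.14 in TH of control mice. The Kcnj genes held levels of 7.02 to 7.24 in every group, with neighbours closer together than their spread.

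Across mice of a fraction, some of the 9 genes varied with cell type markers. Each gene's brightest probe was correlated with the mean log2 level of 9 marker lists, as deviations from the mean of the alcohol or control group, over 19 SN arrays (without controls 12 and 13) and 19 TH arrays. These 162 relations were chosen after the data were seen, and p-values are from 100000 permutations, adjusted over all 162. By Pearson's r, 5 passed. In SN, Slc29a1 followed the 10 GABA neuron markers (r = 0.84, permutation p = 2e-05, adjusted p = 0.00243; rho = 0.93, permutation p = 1e-05, the smallest the permutations can give, adjusted p = 0.00162). Without the 2 arrays farthest from the median marker level r was 0.85, and over all 21 SN arrays it was 0.81. Slc29a1 also followed the 6 oligodendrocyte markers in SN (r = 0.82, permutation p = 3e-05, adjusted p = 0.00243; rho = 0.74, permutation p = 0.000340, adjusted p = 0.0275; r = 0.71 without the 2 farthest arrays). In TH the same relation gave r = 0.71 (permutation p = 0.000530, adjusted p = 0.0215; rho = 0.71, permutation p = 0.000950, adjusted p = 0.0385; r = 0.70 without the 2 farthest arrays). Slc29a1 thus varied with oligodendrocyte markers in both fractions. Most of these mice supplied both an SN and a TH array, so the TH relation is not an independent repeat of the SN relation. The relation of Slc29a1 to the GABA neuron markers did not pass by r in TH. Whether its relations to the GABA neuron and oligodendrocyte markers in SN are separate was not tested.

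**Figure D5:**
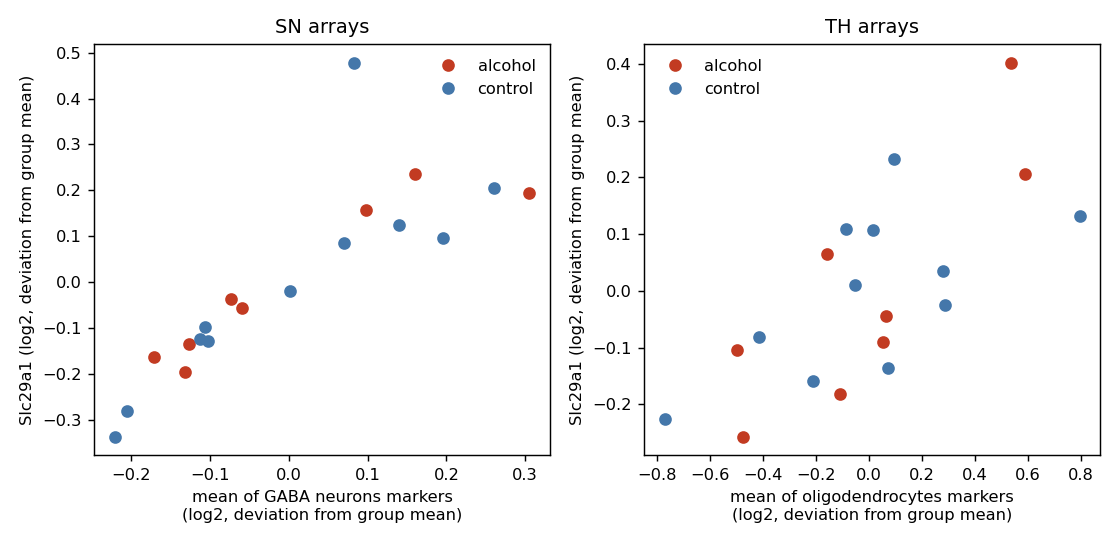
Slc29a1 level of each array against the mean level of the GABA neuron markers in SN (left, 19 arrays) and of the oligodendrocyte markers in TH (right, 19 arrays), both in log2 units as deviations from the mean of the alcohol or control group. In SN the points follow a line except for 1 control array that lies above it (r = 0.84), and in TH they scatter more (r = 0.71).

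The relations of Hcn2 and Glra2 passed by one of the measures only. Hcn2 followed the oligodendrocyte markers in TH (r = 0.79, permutation p = 0.000130, adjusted p = 0.00702; rho = 0.60, permutation p = 0.00768, adjusted p = 0.121; r = 0.68 without the 2 farthest arrays). In SN that relation was r = 0.28 (adjusted p = 0.613). Hcn2 also followed the GABA neuron markers in TH by rank (rho = 0.74, permutation p = 0.000540, adjusted p = 0.0292) but not by r (0.58, permutation p = 0.00929, adjusted p = 0.125; 0.70 without the 2 farthest arrays). Glra2 followed the GABA neuron markers in SN (r = 0.67, permutation p = 0.00139, adjusted p = 0.0450; rho = 0.62, permutation p = 0.00616, adjusted p = 0.111; r = 0.71 without the 2 farthest arrays). Its relation in TH was r = 0.56 (adjusted p = 0.152). No relation of Adora1, Kcnma1, Kcnmb4 or the Kcnj genes passed by r or by rho.

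The genes most like the 4 members of highest level were found by Pearson correlation of normalized values across arrays after group means were removed. The arrays share their normalization, and the values are a description. In SN (21 arrays) Hcn2 was most like Sbk1 (r = 0.83), Fam98c (0.81) and Phactr1 (0.77). Adora1 was most like Git1 (0.87), Phf21b (0.85) and Igsf21 (0.85). Kcnmb4 was most like Epop (0.87), Rpl27a (0.82) and Plekhm1 (0.82), and Kcnma1 most like Atp8a1 (0.82) and Erc2 (0.80). Without controls 12 and 13 these correlations lay between 0.75 for Phactr1 and 0.91 for Epop, and the ranks moved: Epop and Sbk1 stayed first, whereas Phf21b was at rank 28 for Adora1 and Atp8a1 at rank 19 for Kcnma1. In TH (19 arrays) other genes led these lists: Ephb1 for Hcn2 (0.87), Sowahb for Adora1 (0.87), Plekha4 for Kcnmb4 (0.85) and Fam131b for Kcnma1 (0.84). Igsf21 kept a correlation of 0.81 with Adora1 in TH, whereas Rpl27a had -0.31 with Kcnmb4.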

How the data were processed

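Messenger RNA was measured on 40 BeadChip arrays. Per the file headers, the deposited signal tables hold the average bead intensity of each of 45281 probes and a detection p-value, with no normalization between arrays. The authors' normalized tables hold values on a log2-like scale, each table normalized on its own, and the submitters' processing notes name lumi. Every probe they keep was detected (p under 0.05) on at least 81.0% of the arrays, as found from the values. The sources used here do not give a version of lumi. The TH arrays of controls 11 and 12, which the titles call outliers, and the miRNA arrays were not used here.

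Comparisons were fitted with limma 3.58.1 in R 4.3.3, with p-values adjusted over every probe tested (Benjamini-Hochberg) and a threshold of 0.05. SN against TH was fitted in control mice on the authors' values with the mouse as a block. The pairing comes from the labels, since both fractions are parts of the same homogenate. Deviations of SN and TH of the same control mouse correlated at 0.081 to 0.62, over 0.1 in 10 of 11 pairs. Alcohol was set against control in each fraction on the authors' values, with no block. SN against TH in alcohol mice, and the difference of the alcohol effect between fractions, used log2 signals quantile-normalized over the 40 arrays and the 17265 probes kept in both the SN and the TH table. Where a gene has several kept probes, the one with the highest mean stands for it. All 9 genes are named, related genes come from pathway lists, and up to 3 most similar genes are given for the 4 members of highest SN level. Some genes these rules select are not reported here. The members, lists and tests were chosen with earlier results of these data known. The fits were tested on simulated data. Permutations, promoter windows and figures used Python 3.11.15, pandas 2.3.3, scipy 1.17.1 and matplotlib 3.10.9. Alternatives were the block, other normalizations and background correction, all probes of the array, and leaving out mice. The number of arrays limits the precision.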

Additional observations from a re-analysis of the deposited data

How the results depend on the processing

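Of 945 values of the 9 genes recomputed under the alternatives, 925 kept their side of the threshold. Of the rest, 10 gained the call and 7 lost it without a change of sign. The other 3 were called values that changed sign and were then no longer called. A further 33 values that were not called changed sign, among them Adora1 for alcohol against control in TH. The called values that changed sign did so under median centring of the alcohol mice, namely Hcn2 (-0.011), Kcnma1 (-0.043) and Kcnmb4 (-0.0028). There the median of the probes tested lay at -0.18. The cause of that shift was not tested. In control mice, median centring ended the calls of Hcn2 and of the brightest Kcnma1 probe. It gave calls for Slc29a1 (-0.19), Kcnj3 (-0.094) and Kcnj9 (-0.085). Kcnmb4 was called in control mice with log2 quantile-normalized signals, with normexp background correction and with joint normalization (adjusted p = 0.0404, 0.0499 and 0.0410), and without control replicate 1, 5 or 10. For SN against TH in control mice, the count of probes called ran from 6109 with no replicate block to 9313 with median centring, and for SN against TH in alcohol mice from 6298 with no replicate block to 11704 with median centring. Leaving out a mouse gave 6360 to 7019 and 7130 to 7708. With no replicate block, Hcn2 (adjusted p = 0.0579), Kcnma1 (0.0593) and Slc29a1 (0.0514) were not called in alcohol mice, and with all probes of the array the value of Hcn2, SN against TH in alcohol mice, was not (0.0616). The comparisons of alcohol against control in SN and of alcohol against control in TH gave 0 calls under every alternative run. With a replicate block on the mouse number, 1331 probes in SN and 1060 in TH had an unadjusted p under 0.05, against 1878 and 571. The same-numbered alcohol and control mice correlated at -0.26 to 0.35 in SN and at -0.30 to 0.20 in TH. In each fraction 2 of 8 pairs were over 0.1. These correlations cannot exclude a pairing, since SN and TH of control 9, parts of the same homogenate, reached only 0.081. Without controls 12 and 13, 1157 probes in SN had an unadjusted p under 0.05, and leaving out a single mouse gave 1240 to 2626. The joint normalization, median centring of control mice and the fit without control 13 (7019 calls) were chosen after seeing the data. The BeadChip as a block was not run, because the headers do not name the BeadChips. Low signal over background limits the Kcnj genes.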
